A study of Mus musculus with 32 samples.

Results

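The miR-29 family comprises the mature miRNAs miR-29a, miR-29b and miR-29c, each cut from a hairpin precursor with a 3p and a 5p arm. Members were every entry named miR-29a, miR-29b (with copy numbers) or miR-29c, on either arm, which gave 7 of the 870 miRNAs in the deposited small RNA table. The samples were mesenteric arteries, small resistance arteries of the gut, from male mice aged 10 to 12 weeks at the start. The ieCre controls carry a tamoxifen-inducible Cre recombinase driven by the Tie2 promoter, which is active in endothelium, and the ieET-1 mice overexpress the vasoconstrictor peptide endothelin-1 in the endothelium. Both genotypes received tamoxifen at 1 mg/kg/day under the skin for 5 days, so that Cre and tamoxifen were common to all groups. Arteries were taken after a further 16 days, called short term, or after 3 months, called long term. The 30 libraries analysed here came from 7 ieCre and 8 ieET-1 mice at each time, every one with its own animal number. Tie2 drives Cre in endothelium, while the RNA came from whole vessels, so that fewer cells of a type and less of a miRNA per cell cannot be told apart.

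miR-29 miRNAs repress messenger RNAs of the extracellular matrix, among them those of collagens, fibrillin and elastin, and are often low where tissue becomes fibrotic. The 3p arms are the guide strands that Argonaute proteins carry to their targets, through pairing of the seed near the 5′ end, and the 5p arms are passenger strands that are mostly degraded. Transforming growth factor beta, a driver of fibrosis, lowers miR-29 in many cell types. In human cells, the AGUGUU end of miR-29b was reported to direct its import into the nucleus.

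The 3 guide arms are shown first, since all comparisons turn on them. Capitals mark the seed, bases 2 to 8 counted from 1 at the 5′ end, which all 3 share, and the sequences are from RefSeq (GRCm38.p6).
miR-29a-3p: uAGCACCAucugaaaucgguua
miR-29b-3p: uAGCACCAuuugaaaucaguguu
miR-29c-3p: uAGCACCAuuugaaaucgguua
miR-29c-3p was identical to miR-29a-3p at 21 of 22 bases and differed from it by C10U, counted from the 5′ end. miR-29b-3p differed from miR-29a-3p by C10U, G18A, U21G and A22U, and had 1 base more at its 3′ end. From miR-29b-3p to miR-29c-3p the changes were A18G, G21U and U22A. Because miR-29a-3p and miR-29c-3p differ by a single base, reads that do not cover it cannot be assigned to either one, and no source used here says how the authors assigned such reads.

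The passenger arms are shown because, unlike the guides, they tell the miR-29b precursors apart. Bases 2 to 8 are again in capitals.
miR-29a-5p: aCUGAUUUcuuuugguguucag
miR-29b-1-5p: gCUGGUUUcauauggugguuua
miR-29b-2-5p: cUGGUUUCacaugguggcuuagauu
miR-29c-5p: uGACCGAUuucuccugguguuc
The 4 passenger arms have 4 different sequences at bases 2 to 8. Both miR-29b passenger arms contain the run CUGGUUUC, so their difference at bases 2 to 8 comes from where each annotated arm starts. miR-29b-3p is the same from both miR-29b precursors, and its reads cannot be divided between them.

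The precursors lie in 2 clusters in GRCm38. Mir29a at chr6:31062660-31062747 and Mir29b-1 at chr6:31063023-31063093 are both on the minus strand, with 275 bases between them. Mir29b-2 at chr1:195037040-195037120 and Mir29c at chr1:195037547-195037634 are both on the plus strand, with 426 bases between them. In the GENCODE M21 annotation, Mir29b-2 and Mir29c lie wholly inside an exon of the noncoding A330023F24Rik on the same strand, and inside a UTR exon of Cd46, the gene of a complement regulatory protein, on the opposite strand. Mir29b-1 overlaps the lincRNA Gm27019 by 2 bases, and no other gene overlaps Mir29a.
The Mir29a hairpin shows where the arms sit, with both mature arms in capitals:
Mir29a: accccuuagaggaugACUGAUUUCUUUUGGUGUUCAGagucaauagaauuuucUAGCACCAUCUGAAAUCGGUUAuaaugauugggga

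The deposited normalized values were whole multiples of a library's value of 1 read, so the reads could be recovered, and they came to 1820166 to 35531345 miRNA reads per library. The miR-29 rows together had 500 to 28710 reads per library, with a median of 4409.5. On the authors' scale 1 read was worth 0.0178 to 0.480, and a count of 0 allowed a value of up to 0.0535 to 1.44 (3 reads, counting error only). The marker miRNAs of smooth muscle, miR-143 and miR-145a, summed to values of 195656 to 2254720, and the endothelial miR-126 to 5468 to 38673, whereas the hepatocyte miR-122 stayed at 0 to 2.24. One pair of libraries with different genotype labels, ieCre short term 8 and ieET-1 short term 258, was nearly identical, with a Pearson r of 0.9999 between their log2 values, while no other pair of libraries exceeded 0.9963. Their miR-29a-3p reads were 11144 and 10762, and results are given with and without them where a call changes. Animal numbers also fell into ranges: those below 1000 occur only at short term (4 ieCre and 4 ieET-1 libraries), and all long-term libraries are numbered 8000 or above. The labels do not say what the ranges stand for.

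Of the 7 members, the guide arms held nearly all reads. miR-29a-3p had a mean normalized value of 270 over the 30 libraries and stood at rank 60 of 870. miR-29c-3p followed with 53.4 at rank 106, and miR-29b-3p with 21.5 at rank 142. These guides were in the same order in 30 of 30 libraries. Of all family reads pooled, miR-29a-3p took 78.1%, miR-29c-3p 15.5% and miR-29b-3p 5.28%.

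The passenger arms were much lower than the guides. miR-29c-5p had a mean value of 2.68 (rank 263) and miR-29a-5p of 1.39 (rank 301), with 5 to 149 and 3 to 89 reads per library, so both had reads in all 30 libraries. miR-29c-5p was above miR-29a-5p in 28 of 30 libraries and equal to it in 1, the reverse of the order of their guides. The passenger arms specific to each miR-29b precursor were lower still, at 0.451 for miR-29b-2-5p and 0.0996 for miR-29b-1-5p. miR-29b-2-5p had a read in 25 libraries and miR-29b-1-5p in 14, with 273 and 87 reads in all. The arm from the chromosome 1 copy exceeded that from the chromosome 6 copy in 23 of 30 libraries and equalled it in 5. Both miR-29b passenger arms were below the filter on low values and were not tested, which left 5 of the 7 members in the tests.

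Relative to its mean, the share of miR-29a-3p was the steadiest of the guides, while its SD in percentage points was the largest. The share of family reads held by miR-29a-3p was 77.0% ± 3.67 (SD, n = 30), from 69.0% in ieCre short term 9957 to 83.1% in ieCre short term 10. miR-29c-3p held 15.4% ± 2.88, and the same pair of libraries had its highest share of 21.8% and its lowest of 8.85%. miR-29b-3p held 6.23% ± 1.78, from 2.81% in ieET-1 short term 256 to 10.4% in ieCre long term 9491. By group, the mean miR-29a-3p share was 76.3% in ieCre and 78.4% in ieET-1 at short term, and 76.6% in both at long term. The mean miR-29b-3p share was 5.78% and 4.86% at short term, and 7.99% and 6.45% at long term.

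**Figure D1:**
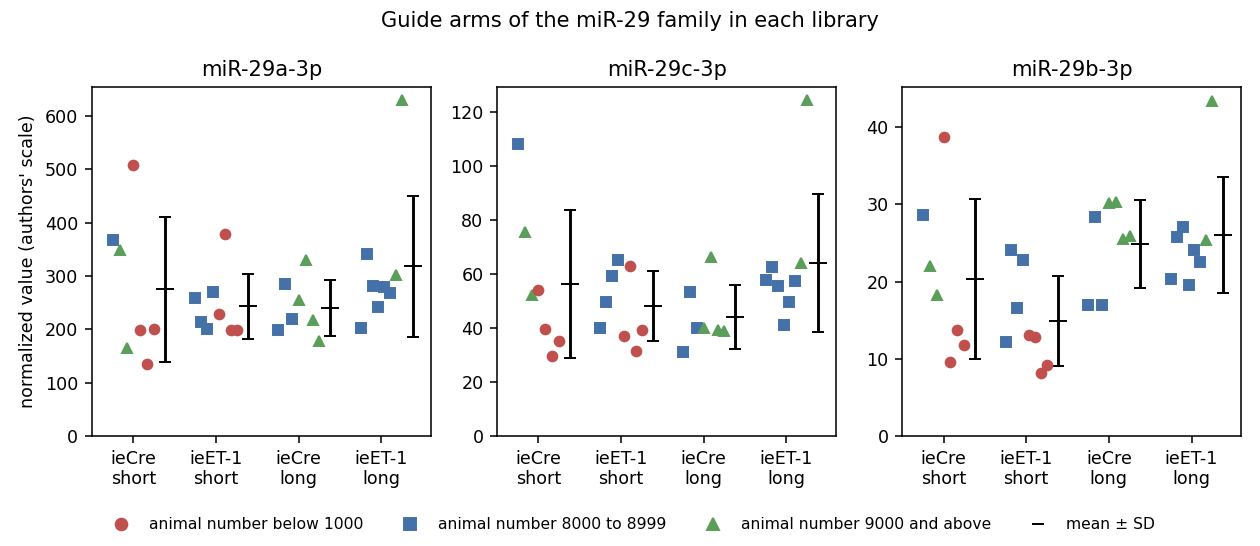
Normalized value (y axis, authors' scale, from 0) of miR-29a-3p, miR-29c-3p and miR-29b-3p in each library, by genotype and time (x axis), with points marked by the range of animal number and black bars for the mean ± SD. The miR-29a-3p points reach 629 and 508 in the single highest libraries of ieET-1 long term and ieCre short term, and in ieET-1 short term the miR-29b-3p points numbered below 1000 all lie at 13.1 or less.

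Genotype was compared first, which asks whether endothelin-1 overexpression moved the family at either time. No miR-29 member passed the test at short term or long term, nor did any other of the 354 miRNAs tested (0% called in each direction). miR-29a-3p, the most abundant guide, had short-term values of 135, 201 and 508 (lowest, median and highest) in ieCre and 199, 222 and 379 in ieET-1. The ieET-1 values lay wholly inside the ieCre range, with means of 275 ± 136 (n = 7) and 244 ± 61.0 (n = 8). The log2 difference, ieET-1 minus ieCre, was -0.06 ± 0.25 (SE; limma adjusted p = 0.990). The near-identical pair has a library on each side of this comparison, so these libraries add almost no difference between the genotypes. Without the pair, 0 of 354 miRNAs were called at short term.

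miR-29c-3p had short-term values of 29.6, 52.3 and 108 in ieCre and 31.6, 44.9 and 65.2 in ieET-1. miR-29b-3p had 9.57, 18.2 and 38.8 in ieCre and 8.19, 13.01 and 24.1 in ieET-1. In both, the groups overlapped and the highest library was an ieCre one. The log2 differences were -0.14 ± 0.25 for miR-29c-3p and -0.37 ± 0.26 for miR-29b-3p, both with an adjusted p of 0.990. All 5 tested members were below 0 (median -0.26, against -0.04 for all miRNAs tested), while 42.7% of all tested miRNAs were above 0. Among animal numbers below 1000 the differences for miR-29a-3p and miR-29c-3p were 0.08 and 0.09, and at 8000 or above they were -0.24 and -0.51. The set below 1000 holds the near-identical pair, with a library in each genotype. The difference of miR-29b-3p stayed below 0, at -0.62 to -0.27 over 16 other settings.

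At long term the point estimates of all 5 tested members were above 0, with 48.9% of all tested miRNAs above 0. miR-29c-3p had the lowest p in the family. Its values were 31.2, 40.1 and 66.2 in ieCre and 41.2, 57.6 and 124 in ieET-1, with means of 44.2 ± 11.8 (n = 7) and 64.2 ± 25.4 (n = 8). The groups overlapped, and the log2 difference was 0.49 ± 0.25 (95% interval -0.01 to 0.99, unadjusted p = 0.0523, limma adjusted p = 0.805).

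miR-29a-3p had long-term values of 179, 220 and 330 in ieCre and 203, 280 and 629 in ieET-1, a log2 difference of 0.35 ± 0.25 (adjusted p = 0.854). miR-29b-3p had nearly the same values in both genotypes, at 17.03, 25.9 and 30.4 in ieCre and 19.5, 24.8 and 43.4 in ieET-1. Its log2 difference was 0.05 ± 0.26, with an adjusted p of 0.973. The highest value of each guide in ieET-1 came from the same library, 9490. Relative to miR-29a-3p, the long-term differences were 0.15 for miR-29c-3p and -0.28 for miR-29b-3p (adjusted p of 0.737 and 0.629). Without library 9490 the difference of miR-29a-3p was 0.20 (adjusted p = 0.981). Scaled to all miRNA reads, with a median of 0.31 over all tested miRNAs, the differences were 0.77 for miR-29a-3p and 0.90 for miR-29c-3p, each with an adjusted p of 0.631.

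The genotype difference itself was not shown to change with time. The interaction, long-term minus short-term genotype difference, was 0.64 ± 0.35 for miR-29c-3p (limma adjusted p = 0.602). It was 0.41 for miR-29a-3p and 0.43 for miR-29b-3p, each with an adjusted p of 0.784. All 5 tested members were above 0, as were 54.8% of all tested miRNAs, and no miRNA of the 354 passed (0%). At an unadjusted p under 0.05, limma, edgeR and DESeq2 gave 9, 9 and 13 miRNAs for the short-term genotype comparison, 20, 27 and 25 for the long-term one and 24, 28 and 36 for the interaction, and 0 passed after adjustment in each tool.

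**Figure D2:**
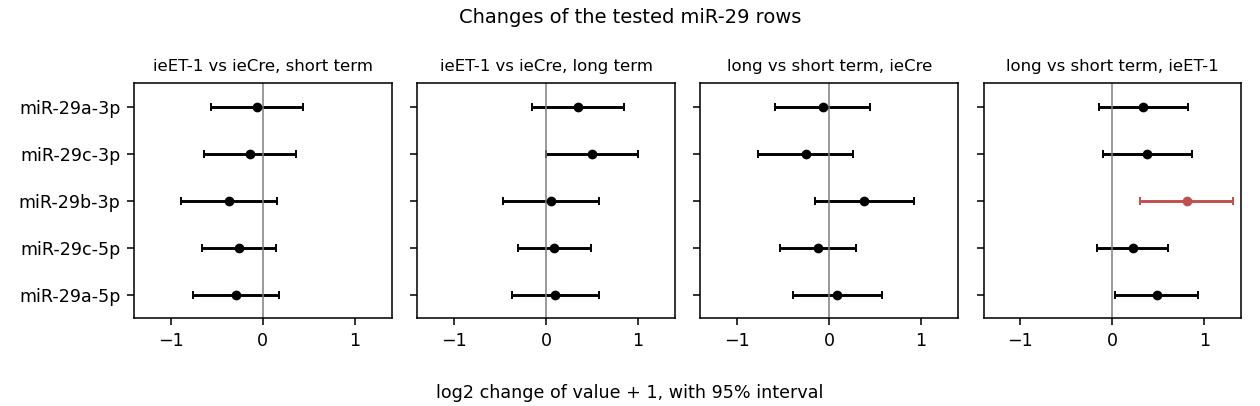
Change on the log2(value + 1) scale (x axis) of the 5 tested members (y axis) in 4 comparisons, with points for the estimate and bars for its 95% interval; the red point passed an adjusted p of 0.05. All intervals include 0 in the genotype comparisons and in ieCre mice over time. In ieET-1 mice over time miR-29b-3p is at 0.81, from 0.30 to 1.32, and the interval of miR-29a-5p also lies above 0, with an adjusted p of 0.185.

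Time after tamoxifen was then compared within each genotype. In ieET-1 mice, miR-29b-3p was the member that rose, 1.75-fold from 16 days to 3 months. Its short-term values were 8.19, 13.01 and 24.1 and its long-term values 19.5, 24.8 and 43.4 (lowest, median and highest). All 8 long-term libraries were above the short-term median, 4 of 8 were above every short-term library, and 6 of 8 short-term libraries were below every long-term one, so the groups overlapped. Of all tested miRNAs, 0% had long-term values wholly above the short-term ones and 1.41% wholly below. Means were 14.9 ± 5.89 and 26.02 ± 7.50 (n = 8 each), and the log2 change was 0.81 ± 0.25 (limma adjusted p = 0.0481). Of all 354 miRNAs, 1.98% rose and 3.95% fell in this comparison.

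That call lay next to the threshold and did not hold under most other treatments of the data. Of 15 other settings 5 kept it, among them DESeq2 with an adjusted p of 0.0225. It was lost in the other 10, among them edgeR with an adjusted p of 0.0741 and TMM scaling with 0.0621. When any one of the 8 ieET-1 long-term libraries was left out the adjusted p was above 0.05, and over all 30 fits that left out 1 library it ran from 0.0223 to 0.118, under the threshold in 10. The log2 change over these 30 fits was 0.70 to 0.91, and leaving out an ieCre library left it at 0.81. The ieET-1 short-term libraries whose loss ended the call were 255, 256, 257, 258 and 8987, the ieCre short-term ones 931, 9955 and 9957, and the ieCre long-term ones 8089, 9485, 9486 and 9487. Without the near-identical pair the change was 0.73 (adjusted p = 0.101), and without the 4 libraries under 5000000 reads it was 0.84 (adjusted p = 0.0968).

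**Figure D3:**
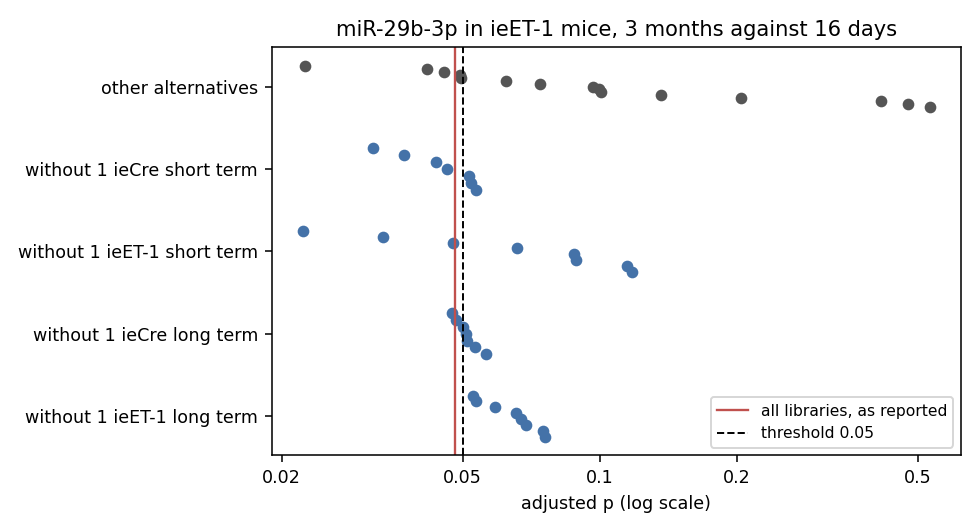
Adjusted p (x axis, log scale) of the miR-29b-3p change with time in ieET-1 mice, for 15 other settings and for each library left out in turn, grouped by the group of the library left out (y axis); the red line is the value with all libraries, 0.0481, and the dashed line the threshold of 0.05. All 8 points without an ieET-1 long-term library lie above the threshold.

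The range of animal number moved with this change. Among ieET-1 short-term libraries, miR-29b-3p was 8.19 to 13.1 in those numbered below 1000 (mean 10.9 ± 2.52, n = 4) and 12.2 to 24.1 in those from 8000 (mean 18.95 ± 5.56, n = 4). The long-term libraries, all at 8000 or above, were at 19.5 to 43.4. With the range as a term the change was 0.48 (adjusted p = 0.205), and among libraries at 8000 or above it was 0.44 (adjusted p = 0.532). The range below 1000 has no long-term library, so for those animals time and range cannot be told apart.

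The other members in ieET-1 mice did not pass the test. The passenger arm miR-29a-5p went from 0.525, 0.802 and 1.70 to 0.563, 1.55 and 3.23, a log2 change of 0.48 ± 0.22 (adjusted p = 0.185). miR-29c-3p went from 44.9 to 57.6 at the median, with a log2 change of 0.38 ± 0.24 (adjusted p = 0.309). miR-29a-3p went from 222 to 280, with 0.34 ± 0.24 (adjusted p = 0.347). Without the long-term library 9490 these changes were 0.23 for miR-29c-3p and 0.18 for miR-29a-3p. All 5 tested members were above 0 (median 0.38, against -0.09 for all tested miRNAs), and 42.1% of all tested miRNAs were above 0.

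In ieCre mice no tested member passed, where 2.26% of all tested miRNAs rose and 5.65% fell. miR-29b-3p went from 9.57, 18.2 and 38.8 to 17.03, 25.9 and 30.4, and the log2 change was 0.38 ± 0.27 (adjusted p = 0.359). The groups overlapped, the short-term one being the more spread, and over all tested miRNAs 0.565% had groups apart with the long term higher and 1.41% with it lower. Of the 5 tested members 2 were above 0, as were 41% of all tested miRNAs. miR-29c-3p had a change of -0.26 ± 0.25 (adjusted p = 0.502) and miR-29a-3p of -0.07 ± 0.25 (adjusted p = 0.849). Leaving out the short-term library 8754 brought miR-29c-3p to -0.08, and leaving out 8 brought miR-29b-3p to 0.24. Among libraries numbered 8000 or above, with 3 at short term, the changes were -0.80 for miR-29c-3p (adjusted p = 0.0811), -0.23 for miR-29a-3p and 0.10 for miR-29b-3p. The rise of miR-29b-3p in ieET-1 mice was not shown to differ from the change in ieCre mice, since the interaction given above is the same difference.

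Summed smooth muscle, neural and epithelial markers also had higher medians at long term. The summed smooth muscle miR-143 and miR-145a values had medians of 260179 and 279081 at short term (ieCre and ieET-1) and 643165 and 656520 at long term. The neural miR-124 and miR-9 sum had medians of 179 and 118 at short term and 302 and 331 at long term, and the epithelial sum 581 and 452, then 1083 and 984. In the library ieET-1 long term 8135 the epithelial sum was 11031, while the highest values of the other groups were 817 to 1329. Of the 4 smooth muscle rows, 1 rose in ieCre mice and none passed in ieET-1 mice, while none of the tested epithelial or neural rows passed in either. The endothelial miR-126 sum had medians between 10071 and 12885 in the 4 groups. Striated muscle markers had lower summed medians at long term, from 622 to 519 in ieCre and from 646 to 521.5 in ieET-1. The leukocyte median went from 185 to 143 in ieCre and from 148 to 169 in ieET-1. The erythroid median went from 331 to 195 in ieCre and from 245 to 283 in ieET-1. The part of these cell types in the miR-29b-3p change was not tested.

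The changes of the abundant guides with time depended on the scaling of the libraries. A deposited value is the reads per 1000000 miRNA reads divided by the authors' scaling factor, so a high factor lowers the values of its library. The factor averaged 1.43 ± 0.353 (n = 7) and 1.29 ± 0.442 (n = 8) at short term, and 0.704 ± 0.251 and 0.941 ± 0.401 at long term (ieCre and ieET-1). Scaled to all miRNA reads, ieCre mice had log2 changes of -1.15 for miR-29a-3p (adjusted p = 0.0272), -1.31 for miR-29c-3p (adjusted p = 0.0106) and -0.88 for miR-29c-5p (adjusted p = 0.0209). The median of all tested miRNAs was then -0.93, and 60.2% of them were called lower. Relative to that median the changes were -0.22, -0.38 and 0.05.

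In ieET-1 mice the same scaling had a median of -0.47 over all miRNAs, with 5.08% called lower. The change of miR-29b-3p was then 0.37 (adjusted p = 0.475), or 0.84 relative to the median. miR-29a-3p and miR-29c-3p were at -0.13 and -0.08, below 0 where the authors' scaling put them above it. Summed over the family, reads per 1000000 miRNA reads were 549 ± 356 in ieCre and 403 ± 170 in ieET-1 at short term, and 228 ± 115 and 440 ± 418 at long term. These sums share the scale on which the median log2 change of all tested miRNAs was -0.93 in ieCre mice. A lower sum at long term is therefore not by itself particular to the family.

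**Figure D4:**
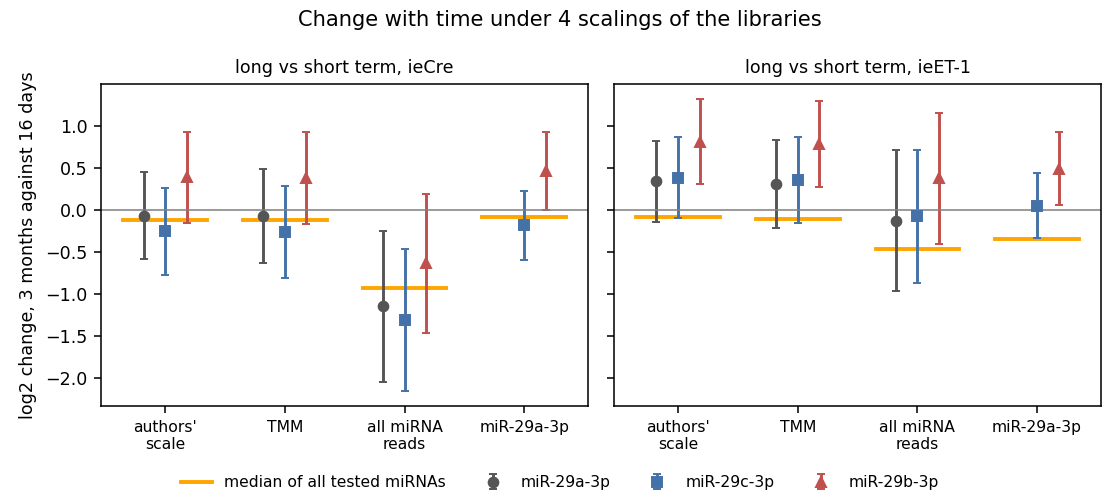
Log2 change from 16 days to 3 months (y axis) of the 3 guides in ieCre and ieET-1 mice under 4 scalings of the libraries (x axis), with points for the estimate, bars for the 95% interval and an orange line for the median of all tested miRNAs. In ieCre mice, scaling to all miRNA reads moved the median to -0.93 and miR-29a-3p to -1.15.

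Ratios of reads within a library do not depend on its scaling. For every 100 reads of miR-29a-3p there were 7.66 ± 2.26 of miR-29b-3p in ieCre and 6.33 ± 2.73 in ieET-1 at short term, and 10.5 ± 2.32 and 8.45 ± 1.02 at long term. The groups overlapped, with 4.81 to 11.01 and 3.40 to 11.3 at short term and 7.74 to 14.5 and 6.90 to 10.0 at long term. Scaled to miR-29a-3p, the log2 change of miR-29b-3p with time was 0.46 in ieCre (unadjusted p = 0.0532, adjusted p = 0.278) and 0.49 in ieET-1 (unadjusted p = 0.0293, adjusted p = 0.136). Here too the range of animal number moved with the ratio, which in ieET-1 short term was 4.47 ± 0.981 below 1000 and 8.18 ± 2.69 from 8000.

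miR-29c-3p kept a closer ratio to miR-29a-3p. It had 20.2 ± 4.72 reads per 100 of miR-29a-3p over the 30 libraries (10.7 to 31.6), and group means ran from 18.3 in ieCre long term to 21.8 in ieCre short term. This ratio also moved with the range of animal number. In ieET-1 short term it was 17.1 ± 1.81 below 1000 and 23.1 ± 5.76 from 8000. In ieCre short term it was 10.7 to 21.9 below 1000, 29.4 in library 8754, and 21.7 and 31.6 in libraries 9955 and 9957. The ratio of miR-29b-3p to miR-29c-3p, whose precursors share the chromosome 1 cluster, had means of 38.03 and 30.9 per 100 at short term and 57.6 and 41.8 at long term (ieCre and ieET-1). miR-29b-3p comes from both clusters, and its reads do not show which.

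Passenger to guide ratios were low. miR-29a-5p had 0.536 ± 0.313 reads per 100 of miR-29a-3p, and miR-29c-5p had 5.55 ± 2.57 per 100 of miR-29c-3p. In ieET-1 short term the miR-29c ratio was 4.37 to 8.85 for numbers below 1000 and 3.04 to 4.08 from 8000, which did not overlap. In ieCre short term it was 4.29 to 12.6 below 1000 and 2.02 to 4.59 at 8000 or above, which overlapped. Of the 87 miR-29b-1-5p reads, 61 came from the 8 libraries numbered below 1000, which held 36.5% of all miRNA reads. Of those 61 reads, 32 came from the near-identical pair. Of the 273 miR-29b-2-5p reads, 131 came from the libraries numbered below 1000.

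**Figure D5:**
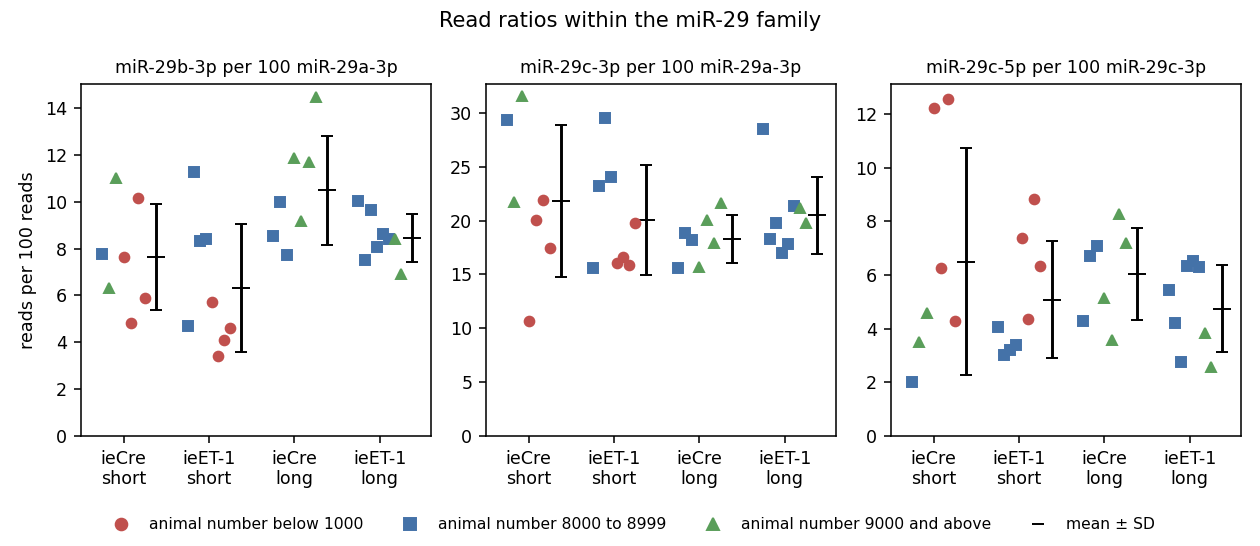
Reads per 100 reads (y axis, from 0) for miR-29b-3p against miR-29a-3p, miR-29c-3p against miR-29a-3p and miR-29c-5p against miR-29c-3p, in each library by genotype and time (x axis), with points marked by the range of animal number and black bars for the mean ± SD. The mean of miR-29b-3p against miR-29a-3p is 7.66 and 6.33 at short term and 10.5 and 8.45 at long term.

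In order of mean value, neighbouring groups lay within each other's spread for all 3 guides. miR-29a-3p was highest in ieET-1 long term (318 ± 132), then ieCre short term, ieET-1 short term and ieCre long term (241 ± 52.5), and miR-29c-3p had the same order. miR-29b-3p ran from ieET-1 long term (26.02) through ieCre long term (24.9) and ieCre short term (20.4) to ieET-1 short term (14.9). No neighbours in these orders differed by more than the larger SD of the pair.

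Across libraries, the guide most like miR-29a-3p was miR-29c-3p. Likeness was the SD over 30 libraries of the log2 ratio of their values + 1, a description with no test, and it was 0.326 for that pair. Of the 349 tested miRNAs outside the family, the closest to miR-29a-3p were miR-27a-3p (0.367), let-7a-1-3p (0.407) and miR-362-3p (0.412). The median over all 349 was 0.733. Mean values of these closest miRNAs were 476, 18.4 and 1.04. Changes of low miRNAs are understated on this scale, which limits the reading of miR-362-3p. The closest to miR-29c-3p were miR-27a-3p (0.346), the endothelial miR-126-3p (0.401) and miR-26b-5p (0.407), with a median of 0.751. miR-29b-3p was closer to miR-335-3p (0.405), let-7a-1-3p (0.432) and miR-374c-5p (0.466) than to miR-29a-3p (0.468) or miR-29c-3p (0.469), with a median of 0.833.

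Other miRNAs that have been linked to fibrosis were taken from a list of 33 entries, of which 25 were tested. The list was chosen with earlier results of these data known. Its counts and medians therefore describe it and cannot show an excess over all miRNAs. None passed in the genotype comparisons or the interaction. In ieCre mice over time 3 rose and 1 fell, beside 2.26% and 5.65% of all tested miRNAs, and the list's median was 0.06 against -0.13 for all. In ieET-1 mice 3 rose and none fell, beside 1.98% and 3.95%, with a median of 0.18 against -0.09. miR-101a-3p rose by a log2 of 1.34 in ieCre (adjusted p = 0.0119) and 1.19 in ieET-1 (adjusted p = 0.0242), from means of 648 to 1850 and 704 to 1663. miR-101b-3p rose by 1.15 (adjusted p = 0.0119) and 1.10 (adjusted p = 0.0216). miR-19b-3p, of the miR-17/92 family of growth-promoting miRNAs, rose by 1.26 (adjusted p = 0.0167) and 1.10 (adjusted p = 0.0331). miR-199a-5p, a fibroblast-associated miRNA, fell by 0.72 on the log2 scale in ieCre (adjusted p = 0.0249). In ieET-1 mice miR-30a-5p had a change of 0.75 (adjusted p = 0.0843). These calls depended on the scaling: scaled to all miRNA reads, 0 of 354 miRNAs were called higher in either genotype. The number called also moved with the range of animal number. Among numbers 8000 or above 0 were called in ieET-1 mice, while 14 were called higher and 18 lower in ieCre mice. At 9000 or above 0 were called in ieCre mice, with 2 libraries at short term. With the range as a term 31 were called higher and 40 lower in ieCre mice, and 14 and 15 in ieET-1 mice.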

How the data were processed

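Small RNA libraries (TruSeq small RNA kit, 1 µg of RNA) were made from arteries dissected free of fat and veins, per the labels' protocols. Tools named in the submitters' processing notes are edgeR 3.6.8, STAR 2.3.1, FastQC, bcl2fastq 1.8.4 and R 3.2.3. No source used here gives the genome build, miRNA annotation or trimming. For each library the authors deposited a normalized signal per miRNA. All 26100 values (100%) were whole multiples of the value of 1 read within 0.001, which gave the reads. Of 32 labelled samples 30 have a column and were used.

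Tests covered the 354 of 870 miRNAs that reached a value of 1 in 8 or more libraries (99.99% of reads). Group means of log2(value + 1) were compared in a single limma 3.58.1 fit with trend (R 4.3.3) over the 4 groups. Tests were two-sided, p-values were adjusted over all 354 by Benjamini-Hochberg, and the threshold was 0.05. Folds on this scale understate changes of low miRNAs. Alternatives included edgeR 4.0.16 and DESeq2 1.42.0 on the recovered reads. The steps were tested on simulated data. p-values treat libraries as separate mice.

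Every member of the family was named. Other named miRNAs were the 3 closest to each guide, up to 4 of the fibrosis list with the smallest p in each time comparison, and summed marker lists, in which miR-126a and miR-142a stand in the table as miR-126 and miR-142. The members and lists were chosen with earlier results of these data known. All 7 members matched RefSeq sequences. Intervals and limits from reads cover counting error only, since no molecular identifiers are stated. Plots used Python 3.11.15 and matplotlib 3.10.9.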

Additional observations from a re-analysis of the deposited data

Results flagged for a closer look

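In 5 of 32 groups of values examined, the extreme library stood apart from the others of its group by more than Dixon's 95% critical value (0.526 for 8 libraries), where chance flags about 1 in 20. The library ieET-1 long term 9490 was the highest of its group in all 3 guides. Its log2(value + 1) was 9.30 for miR-29a-3p (next 8.42), 5.47 for miR-29b-3p (next 4.81) and 6.97 for miR-29c-3p (next 6.02). These 3 values come from 1 library. Its scaling factor was 1.7999, against 0.562 to 1.23 in the other libraries of its group, and values are divided by this factor, so that it lowered them. Before scaling, its family reads were 1446 per 1000000 miRNA reads, against 200 to 486 in the other 7 libraries.

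The library ieET-1 long term 8134 had the lowest share of family reads for miR-29a-3p of its group, at 70.1% (next 75.5%), and the highest for miR-29c-3p, at 20.02% (next 16.2%). Both shares have the same denominator, so they are not separate. This library held 3914624 miRNA reads, of which 578 were miR-29a-3p.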

How the results depend on the processing

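Over 1125 recomputed member changes, 1055 kept their direction and side of the threshold, 30 lost the call (all of miR-29b-3p in ieET-1 mice over time), 3 gained one and 37 turned direction; the 96 recomputed shares stayed within the spread between libraries. The 3 that gained one were miR-29a-3p (-1.15), miR-29c-3p (-1.31) and miR-29c-5p (-0.88) in ieCre mice scaled to all miRNA reads. The counts of miRNAs called for genotype and interaction stayed at 0 in all alternatives run. The cause of the changes below was not tested.

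The count over time in ieCre mice, 28, became 213 with all miRNA reads as the scale and 5 scaled to miR-29a-3p. It was 44 with DESeq2 and 71 with a term for the animal number range. At 9000 or above, with 2 short-term libraries, it was 0, while at 8000 or above 14 were called higher and 18 lower. Leaving out 1 library gave 18 (without ieCre long term 8149) to 39. The count in ieET-1 mice, 21, became 12 with a filter at 10, 38 with edgeR, 47 with DESeq2, 0 at 8000 or above, 7 from 8000 to below 9000, 7 without the near-identical pair and 5 without libraries under 5000000 reads; leaving out 1 library gave 7 to 30.

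Some changes turned direction. For genotype at short term they were miR-29a-3p with TMM (0.044) or below 1000 (0.082) and miR-29c-3p below 1000 (0.091). For genotype at long term they were miR-29a-5p (-0.089), miR-29b-3p (-0.28) and miR-29c-5p (-0.15) scaled to miR-29a-3p, and miR-29a-5p from 8000 to below 9000 (-0.023). In ieCre mice over time, miR-29a-5p was -0.55 scaled to all miRNA reads, -0.029 with DESeq2, -0.026 with the range as a term, -0.066 at 8000 or above, -0.072 at 9000 or above, and -0.11 from 8000 to below 9000. miR-29b-3p was -0.64 scaled to all miRNA reads and -0.48 from 8000 to below 9000, and miR-29c-5p was 0.070, 0.050, 0.12 and 0.025 with the range as a term, at 8000 or above, from 8000 to below 9000 and at 9000 or above. The range from 8000 to below 9000 has only 1 ieCre short-term library, 8754. In ieET-1 mice over time, all miRNA reads gave -0.13 for miR-29a-3p, -0.081 for miR-29c-3p and -0.13 for miR-29c-5p, and scaling to miR-29a-3p gave -0.0060 for miR-29c-5p. Leaving out 1 library turned genotype at short term for miR-29a-3p (-0.21 to 0.11) and miR-29c-3p (-0.27 to 0.034), genotype at long term for miR-29b-3p (-0.054 to 0.11) and miR-29c-5p (-0.0095 to 0.17), and time in ieCre mice for miR-29a-3p (-0.22 to 0.10), miR-29a-5p (-0.032 to 0.27) and miR-29c-5p (-0.23 to 0.039).

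No paired analysis was possible because no animal number occurs in more than 1 group. Depth limits the passenger arms most, since 1 read is worth up to 0.480.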
